A study of Mus musculus with 12 samples.

Results

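The genes described here are 37 skeletal muscle genes measured in whole mouse ears during contact hypersensitivity. They were taken as a list of names: the actin, troponin, myosin and Z-disc genes of the sarcomere, the calcium handling and fuel enzymes of muscle fibres, the ubiquitin ligases Trim63 and Fbxo32, and the myogenic regulators Myod1 and Myog. All 37 are on the array, among 18193 genes with a probe set of their own, and each is represented by its brightest probe set over all ears. All 37 passed the filter on low intensity, as did 13364 genes in all. The list covers 58 probe sets.

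Skeletal muscle fibres shorten when myosin of the thick filament pulls on actin of the thin filament. Calcium released from the sarcoplasmic reticulum binds the troponin complex and frees the actin sites, and the pump SERCA returns it to the store. Many sarcomere proteins have separate slow and fast isoforms, encoded by different genes and used in different fibre types. The outer ear holds small striated muscles beside cartilage, fat, nerve and skin, so a whole ear sample contains them in an amount that depends on how it was cut.

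Ears came from 3 wild-type mice, labelled C57BL/6J and Cnr1+/+/Cnr2+/+, and 3 mice labelled Cnr1-/-/Cnr2-/-, which lack both cannabinoid receptors. The strain background of the latter, called knockout here, is not given in the sources used here. All were females of 8 to 10 weeks, sensitized with 50 µl of 0.2% dinitrofluorobenzene (DNFB, a contact allergen) on the abdomen. On day 5 the right ear was challenged with DNFB at 0.3% in 10 µl, and the left ear stayed untreated. The labels place the harvest 48 h after a 2nd challenge, while the protocol describes a challenge on day 5 alone. Each mouse gave 1 array per ear, so the 12 arrays form 4 groups of 3, and the ears of a mouse are paired. Values are linear intensities of Affymetrix Mouse430_2 arrays made from 5 µg of total RNA per ear.

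The 12 arrays had median intensities of 24.7 to 30.1. The probe sets of Cnr1 lay between 4.88 and 19.8, in ranges that overlapped between genotypes. That of Cnr2 lay between 7.84 and 28.1 in wild-type ears and between 9.85 and 39.4 in knockout ears, and all 3 knockout DNFB ears, at 30.1, 39.4 and 28.6, lay above every wild-type ear. The sources used here do not say whether they lie in the deleted parts, so they check nothing about the genotype labels. By the Hybridize Date in the instrument records the arrays fell into 3 batches, a new one starting after a gap of over 30 minutes. These batches are called runs here. Wild-type DNFB ear 1 shared run 1 with all wild-type control ears, and knockout control ear 3 shared run 3 with all knockout DNFB ears. The other 4 arrays, wild-type DNFB ears 2 and 3 and knockout control ears 1 and 2, formed run 2. The DNFB comparisons are thus largely aligned with runs, and within-run values are given beside the counts. Wild-type and knockout ears of the same treatment shared no run, so genotype and run cannot be told apart.

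Promoter sequence was examined because the genes moved together. The reference table (RefSeq, GRCm38.p6) holds a window from 250 bases before to 50 after the start site for 27 of the 37 genes. Both strands were searched for the E-box CAGCTG, a sequence that MyoD and myogenin can bind, and for the MEF2 and CArG motifs, named after MEF2 proteins and serum response factor. The E-box occurred in 15 of 27 genes (55.6%), against 18.3% of the 27025 genes with a window. A MEF2 motif occurred in 5 (18.5%, against 3.7%) and a CArG box in 3 (11.1%, against 1.81%). The 4 windows below, chosen after the values were seen, contrast 2 genes that fell with DNFB, Myh4 and Tnni1, with 2 that did not pass the test, Acta1 and Des. Capitals mark the motifs, which do not overlap one another in these windows.
Myh4, fast myosin heavy chain, chr11:67237562-67237861, plus strand: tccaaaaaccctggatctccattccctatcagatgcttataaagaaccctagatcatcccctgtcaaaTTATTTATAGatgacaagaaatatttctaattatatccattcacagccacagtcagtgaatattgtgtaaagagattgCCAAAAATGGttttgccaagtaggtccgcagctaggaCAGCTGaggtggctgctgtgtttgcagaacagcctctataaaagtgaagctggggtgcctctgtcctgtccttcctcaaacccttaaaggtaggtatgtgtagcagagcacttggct
Tnni1, slow troponin I, chr1:135799171-135799470, plus strand: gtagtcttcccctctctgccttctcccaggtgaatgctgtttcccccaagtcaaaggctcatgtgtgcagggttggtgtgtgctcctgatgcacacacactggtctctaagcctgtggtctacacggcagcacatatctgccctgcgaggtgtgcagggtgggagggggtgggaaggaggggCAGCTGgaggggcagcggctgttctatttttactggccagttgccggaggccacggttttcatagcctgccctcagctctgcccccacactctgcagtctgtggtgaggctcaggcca
Acta1, skeletal actin, chr8:123894726-123895025, minus strand: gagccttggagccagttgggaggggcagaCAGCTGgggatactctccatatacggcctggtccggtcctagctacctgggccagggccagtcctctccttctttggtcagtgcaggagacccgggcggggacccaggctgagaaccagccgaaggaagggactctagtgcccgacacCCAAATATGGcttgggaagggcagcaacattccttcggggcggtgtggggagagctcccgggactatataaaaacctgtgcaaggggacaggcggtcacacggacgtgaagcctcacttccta
Des, desmin, chr1:75360042-75360341, plus strand: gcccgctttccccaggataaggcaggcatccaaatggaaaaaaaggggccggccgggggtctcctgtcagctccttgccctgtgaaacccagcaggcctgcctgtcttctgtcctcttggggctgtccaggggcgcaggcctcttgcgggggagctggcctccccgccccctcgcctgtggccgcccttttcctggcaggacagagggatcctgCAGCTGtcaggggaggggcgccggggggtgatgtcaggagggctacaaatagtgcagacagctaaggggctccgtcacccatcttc
Counted from the start site, the E-box began at -67 in Myh4, -68 in Tnni1, -221 in Acta1 and -36 in Des. Tnni1 has another window, not printed, with a different start site, from which the same E-box began at -158. Myh4 also held a MEF2 motif at -182 and a CArG box at -104, and Acta1 a CArG box at -73. All 4 windows held the E-box, those of the genes that fell and those of the genes that did not pass alike. A match describes letters and is no evidence of binding.

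With DNFB, 26 of the 37 muscle genes fell in wild-type ears and none rose, where 24.1% of all genes tested fell and 19% rose (limma, adjusted p under 0.05). In knockout ears 27 of 37 fell and none rose, against 24.6% and 21.2% of all genes. The median log2 change was -0.78 in wild-type and -1.12 in knockout ears, beside -0.08 and -0.06 over all genes tested. The 26 genes that fell in wild-type ears also fell in knockout ears, and nebulin (Neb) was the other gene in the knockout count. Of the 37 genes, 31 were lower in the DNFB ear of all 6 mice, as were 30.3% of all genes. All treated ears lay below all control ears for 27 genes in wild type and 31 in knockout, against 33.4% and 30.3% of all genes. The wild-type count was 16 without wild-type control ear 3 and also 16 without wild-type DNFB ear 1. With run as a block, the wild-type response rests on wild-type DNFB ear 1 as its only treated ear. The knockout response then rests on knockout control ear 3 as its only control ear. No count is given for that fit. Within run 1, the median of the muscle genes was -1.16 for wild-type DNFB ear 1 against 3 control ears, with 36 of 37 lower. That ear was the lowest of its group for 31 of the 37 genes. Within run 3 the median was -0.84 for the 3 knockout DNFB ears against control ear 3, with 37 lower. The same medians over all genes were -0.08 and -0.05.

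In whole ears, fewer muscle fibres and less RNA per fibre cannot be told apart, and every level is relative to the total RNA of the ear. RNA of other cells changed too: the summed intensity of 10 leukocyte markers was 3128 to 3374 in wild-type control and 11132 to 14550 in wild-type DNFB ears, and 3256 to 3451 and 11646 to 14881 in knockout ears. The part of this in the fall of the muscle genes was not tested.

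**Figure D1:**
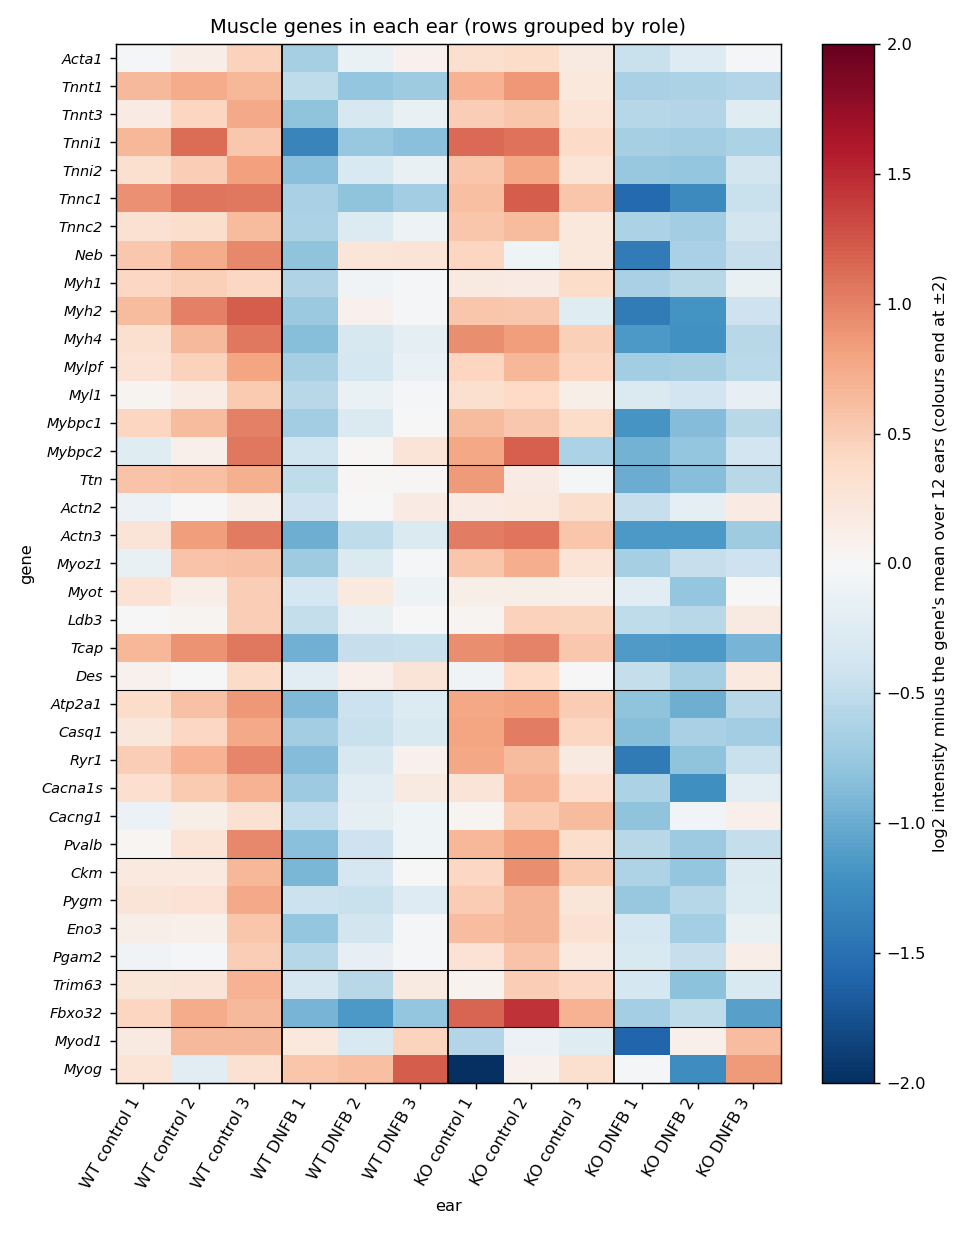
Each cell gives the log2 intensity of a muscle gene (rows, grouped by role) in an ear (columns, 3 per group) minus the gene's mean over 12 ears. Control ears are mostly red and DNFB ears mostly blue in both genotypes, while Myod1 and Myog at the bottom show no such division.

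Among the thin filament genes, 6 of 8 fell in wild-type and 7 of 8 in knockout ears. The slow troponins had the largest changes of the group. Tnni1, slow troponin I, had intensities of 133, 182 and 123 in wild-type control ears and 33.6, 49.6 and 47.1 in wild-type DNFB ears. In knockout mice it had 186, 179 and 110 in control ears and 53.3, 52.0 and 54.5 in DNFB ears. Every DNFB ear lay far below every control ear. The log2 change was -1.75 ± 0.23 (SE, n = 3 per group, limma adjusted p = 0.000267) in wild-type ears, or 3.36-fold lower, and -1.53 ± 0.23 in knockout ears (limma adjusted p = 0.000511).

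Tnnc1, the troponin C of slow and cardiac muscle, went from 194, 216 and 214 in wild-type control ears to 65.4, 59.3 and 63.7 in DNFB ears. Knockout mice went from 156, 239 and 151 to 35.1, 42.7 and 75.9. The groups did not overlap, and knockout DNFB ear 3 was the highest of its group. The log2 changes were -1.73 ± 0.26 and -1.88 ± 0.26 (limma adjusted p = 0.000658 and 0.000349). Tnnt1, slow troponin T, fell by 1.35 ± 0.15 on the log2 scale in wild-type ears (limma adjusted p = 0.000109), from 302, 322 and 306 to 136, 112 and 117. In knockout ears it fell by 1.22 ± 0.15, from 312, 353 and 224 to 123, 124 and 129 (limma adjusted p = 0.000176). Its treated ears sat within a narrow band in both genotypes.

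The fast troponins had smaller changes. Tnni2, fast troponin I, averaged 1834 ± 327 (SD, n = 3) in wild-type control and 939 ± 219 in DNFB ears, a log2 change of -0.98 ± 0.21, with -1.17 ± 0.21 in knockout ears. Tnnt3, fast troponin T, changed by -0.88 ± 0.20 and -0.91 ± 0.20, and Tnnc2, fast troponin C, by -0.77 ± 0.17 and -1.03 ± 0.17. All 3 passed in both genotypes. Neb, the ruler-like protein along the thin filament, changed by -1.02 ± 0.32 in knockout ears (limma adjusted p = 0.0274) and by -0.85 ± 0.32 in wild-type ears, where it did not pass (limma adjusted p = 0.058). In wild-type DNFB ears Neb was 111, 231 and 233, so ear 1 stood well below the others.

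Acta1, skeletal actin and the backbone of the thin filament, did not pass. Its intensities were 2834, 3181 and 3958 in wild-type control ears and 1823, 2640 and 3063 in DNFB ears. In knockout mice they were 3622, 3718 and 3253 against 2108, 2404 and 2854. The wild-type groups overlapped and the knockout groups did not, although all 6 mice had the lower value in the treated ear. The log2 changes were -0.43 ± 0.20 and -0.53 ± 0.20 (limma adjusted p = 0.12 and 0.0581). With mouse as a fixed or a random block the knockout change passed (limma adjusted p = 0.035 and 0.0479). Muscle actins are near-identical in sequence, as are myosin heavy chains, so their probe sets may share signal with related genes.

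Of the 7 thick filament genes, 6 fell in each genotype. Myh4, the heavy chain of the fastest fibres, had 1221, 1547 and 2050 in wild-type control ears and 543, 783 and 864 in DNFB ears. Knockout mice had 1866, 1762 and 1363 against 445, 425 and 666. No treated ear reached a control ear. The log2 change was -1.13 ± 0.25 in wild-type (limma adjusted p = 0.00592) and -1.72 ± 0.25 in knockout ears (limma adjusted p = 0.000484). Myh2, the heavy chain of fast oxidative fibres, changed by -1.18 ± 0.32 and -1.29 ± 0.32, and Myh1, of an intermediate fast fibre type, by -0.67 ± 0.17 and -0.68 ± 0.17. All 6 values passed.

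The light chains and the slow myosin binding protein fell as well. Mylpf, the fast regulatory light chain, changed by -0.90 ± 0.16 and -1.14 ± 0.16, and Myl1, the fast essential light chain, by -0.49 ± 0.16 and -0.56 ± 0.16. Mybpc1, the slow form of myosin binding protein C, fell, with changes of -1.02 ± 0.22 in wild-type and -1.38 ± 0.22 in knockout ears. Mybpc2, its fast form, passed in neither genotype. It varied widely within control ears, from 43.8 to 108 in wild type and from 33.5 to 119 in knockout mice, against 39.3 to 62 and 26.9 to 40.1 in DNFB ears.

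Of the 8 genes of the Z-disc, titin and desmin group, the same 4 fell in both genotypes, Tcap, Actn3, Ttn and Myoz1. Tcap, telethonin, which caps the end of titin at the Z-disc, had 774, 915 and 1014 in wild-type control ears and 251, 356 and 359 in DNFB ears. Knockout mice had 927, 968 and 708 against 222, 221 and 255. The gap between groups was wide beside the spread within them. Its log2 change was -1.50 ± 0.18 in wild-type (limma adjusted p = 0.000143) and -1.89 ± 0.18 in knockout ears, or 3.7-fold lower (limma adjusted p = 3.0e-05), the smallest adjusted p of the 37 genes in knockout ears.

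Actn3, the alpha-actinin of fast fibres, went from 206, 309 and 355 to 87.4, 122 and 142 in wild-type and from 353, 363 and 254 to 78, 78.2 and 106 in knockout mice. The log2 changes were -1.30 ± 0.25 and -1.89 ± 0.25 (limma adjusted p = 0.00261 and 0.000254). Actn2, the alpha-actinin shared by all fibre types and heart, changed by -0.09 ± 0.18 and -0.41 ± 0.18 and did not pass (limma adjusted p = 0.715 and 0.101). Its wild-type ears overlapped almost fully, at 269, 296 and 320 in control and 219, 293 and 326 in DNFB ears. Its knockout change passed narrowly with mouse as a fixed block (limma adjusted p = 0.0498) and not with mouse as a random block (0.0848). Its wild-type change was 0.05 with each array centred on its median.

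Titin (Ttn), the giant elastic protein that spans the sarcomere from Z-disc to M-band, changed by -0.78 ± 0.23 in wild-type ears (limma adjusted p = 0.0218, or 0.0567 with mouse as a fixed block and 0.0192 with it as a random block) and by -1.13 ± 0.23 in knockout ears. Myoz1, a Z-disc protein that binds calcineurin, changed by -0.68 ± 0.23 and -1.03 ± 0.23. Des, the intermediate filament desmin, had 225, 212 and 275 in wild-type control and 183, 226 and 253 in DNFB ears. It had 200, 279 and 213 against 151, 134 and 241 in knockout mice. Its groups overlapped in both genotypes, and its changes of -0.11 ± 0.23 and -0.43 ± 0.23 did not pass. With each array centred on its median the wild-type value for Des was 0.03. Myot and Ldb3, which tie Z-disc proteins together, did not pass either, at -0.39 ± 0.20 and -0.39 ± 0.23 in wild-type and -0.45 ± 0.20 and -0.61 ± 0.23 in knockout ears. Ldb3 passed in knockout ears with mouse as a fixed or a random block (limma adjusted p = 0.0329 and 0.0457).

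**Figure D2:**
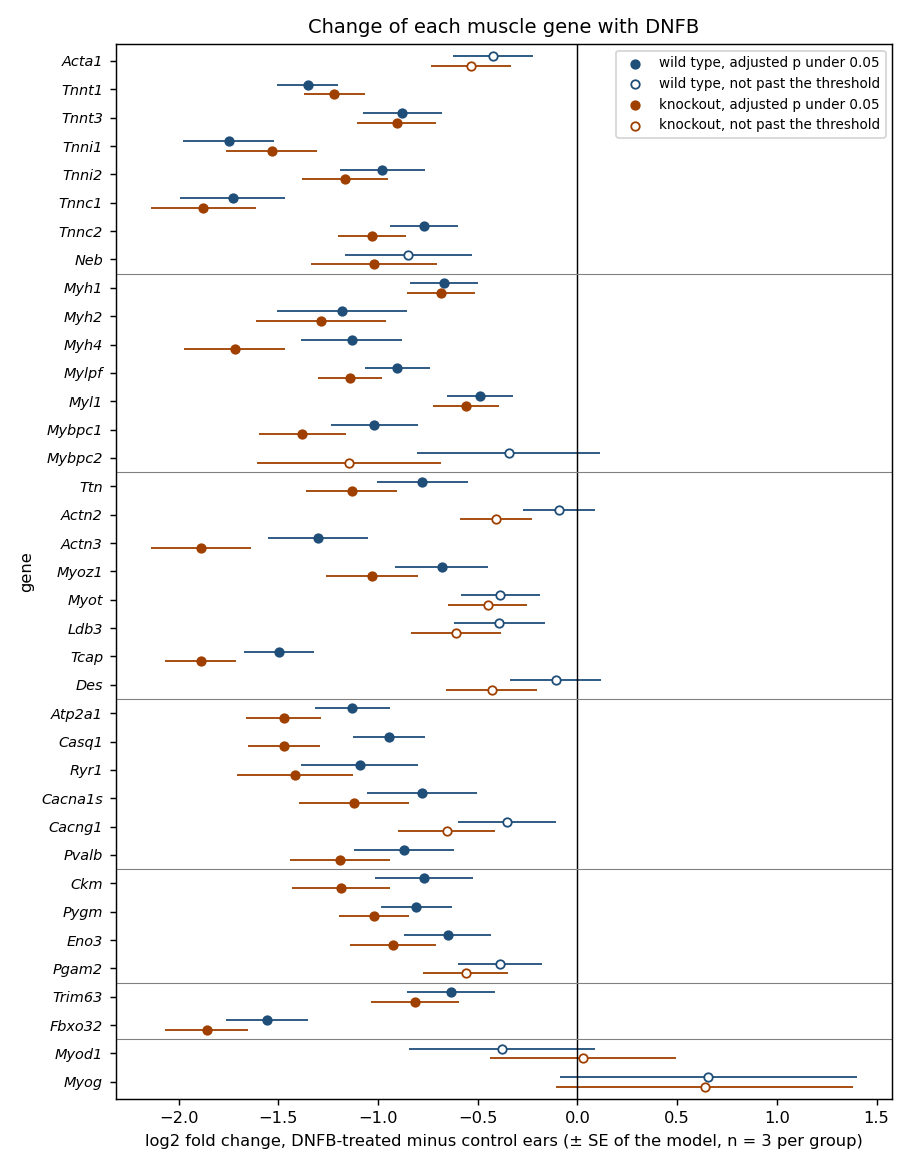
Points give the log2 fold change of each muscle gene, DNFB-treated minus control ears, with the SE of the limma model (n = 3 ears per group), and filled points passed at an adjusted p under 0.05. In both genotypes the slow troponins Tnni1 and Tnnc1 lie far to the left with Tcap, Actn3 and Fbxo32, while Actn2 and Des lie near 0 in wild-type ears.

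Of the 6 calcium handling genes, 5 fell in each genotype. Atp2a1, the fast-fibre calcium pump SERCA1, had 1586, 1840 and 2248 in wild-type control ears and 671, 916 and 1022 in DNFB ears. Knockout ears had 2109, 2154 and 1760 against 705, 629 and 841. The groups were well apart. The log2 changes were -1.13 ± 0.19 and -1.47 ± 0.19 (limma adjusted p = 0.00116 and 0.000202). Casq1, the calcium store protein calsequestrin of fast fibres, changed by -0.95 ± 0.18 and -1.47 ± 0.18. Ryr1, the calcium release channel, changed by -1.09 ± 0.29 and -1.42 ± 0.29, and Pvalb, the calcium buffer parvalbumin, by -0.87 ± 0.25 and -1.19 ± 0.25.

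The subunits of the voltage sensor that opens Ryr1 differed in their calls. Cacna1s, its pore subunit, changed by -0.78 ± 0.28 in wild-type ears, just past the threshold (limma adjusted p = 0.0479, or 0.0668 with mouse as a fixed block and 0.0415 with it as a random block), and by -1.12 ± 0.28 in knockout ears. Cacng1, its gamma subunit, changed by -0.35 ± 0.24 and -0.66 ± 0.24 and did not pass (limma adjusted p = 0.282 and 0.0567). With mouse as a fixed block Cacng1 passed in both genotypes (limma adjusted p = 0.0463 and 0.00604). With mouse as a random block it passed in knockout ears (0.0444) and not in wild-type ears (0.251). Its treated ear was lower in all 6 mice, and the groups overlapped.

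Of the 4 fuel enzymes, 3 fell in each genotype. Ckm, the creatine kinase of muscle, had 1265, 1264 and 1745 in wild-type control and 586, 867 and 1106 in DNFB ears. It had 1464, 2102 and 1577 against 715, 643 and 899 in knockout mice. The log2 changes were -0.77 ± 0.25 and -1.18 ± 0.25 (limma adjusted p = 0.0317 and 0.00373). Pygm, which breaks down muscle glycogen, changed by -0.81 ± 0.18 and -1.02 ± 0.18, and Eno3, the muscle enolase, by -0.65 ± 0.22 and -0.93 ± 0.22. Pgam2, the muscle phosphoglycerate mutase, changed by -0.39 ± 0.21 and -0.56 ± 0.21 and did not pass.

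Both ubiquitin ligases fell. Fbxo32 (atrogin-1), which marks muscle proteins for breakdown and is induced in wasting muscle, had 203, 253 and 238 in wild-type control ears and 79.3, 68.6 and 88.7 in DNFB ears. In knockout mice it had 341, 412 and 246 against 94.6, 106 and 71.7. All treated ears lay below all control ears. The log2 changes were -1.56 ± 0.21 and -1.86 ± 0.21 (limma adjusted p = 0.000304 and 8.72e-05). Trim63 (MuRF1), its partner in wasting, changed by -0.63 ± 0.22 and -0.81 ± 0.22 (limma adjusted p = 0.0451 and 0.0149).

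The myogenic regulators were dim and did not follow. Myod1 had 17.3, 23.8 and 23.9 in wild-type control and 17.5, 12.3 and 20.8 in DNFB ears, and 10.1, 14 and 12.9 against 5.05, 16.3 and 23.4 in knockout mice. Myog had 17.7, 12.7 and 18.1 against 21.4, 22.1 and 33.6 in wild-type mice. In knockout mice it had 2.21, 15.4 and 18.2 against 14.3, 6.15 and 26.4. Each was below 16, the intensity used as the filter, in 5 of 12 ears, and neither passed in either genotype. At this signal no change of either gene could be read.

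The level of the muscle genes varied between ears of one group, and most of the genes varied together. A muscle level per ear was taken as the median over the 37 genes of log2 intensity minus the gene's mean over 12 ears. Wild-type control ears 1 to 3 had levels of 0.28, 0.46 and 0.70, and wild-type DNFB ears -0.67, -0.31 and -0.04. Knockout control ears had 0.55, 0.63 and 0.32, and knockout DNFB ears -0.67, -0.69 and -0.37. All 6 treated ears lay below all 6 control ears, and wild-type DNFB ear 3 was the treated ear nearest to them. The SD within groups ran from 0.16 to 0.31. The median replicate SD of a muscle gene was 0.25, 0.32, 0.24 and 0.27 in these 4 groups, against 0.13, 0.15, 0.16 and 0.16 over all genes.

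Single ears were high or low across most of the list. Wild-type control ear 1 was the lowest of its group for 31 of 37 genes and ear 3 the highest for 32. Wild-type DNFB ear 1 was the lowest for 31 and ear 3 the highest for 32, and knockout DNFB ear 3 was the highest for 35. Over all genes tested, the same ears were lowest or highest for 32.9% to 38.7% of genes. The order of the wild-type mice was the same in both ears, while knockout mouse 3 had the lowest control and the highest treated ear. By mouse, the median difference between treated and control ear was -0.96, -0.76 and -0.74 in wild-type mice 1 to 3 and -1.21, -1.32 and -0.59 in knockout mice 1 to 3. How the ears were cut is not given in the sources used here, and its part in these differences was not tested.

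**Figure D3:**
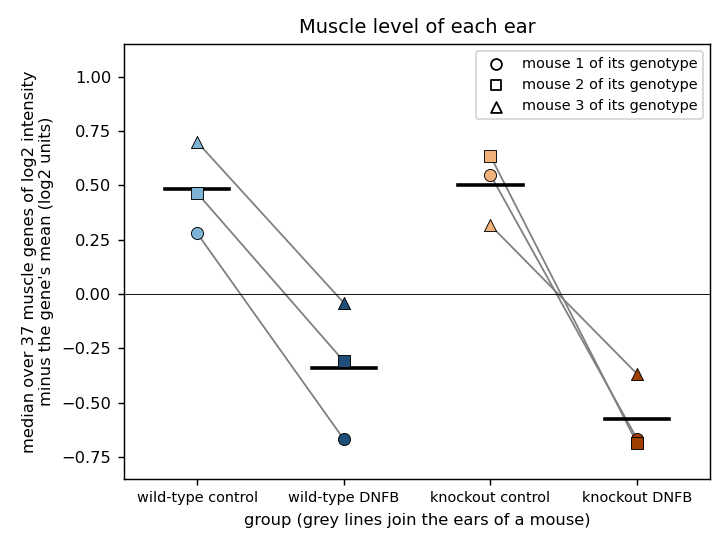
Points give the muscle level of each ear in log2 units, grey lines join the ears of a mouse and black bars are group means (n = 3). The control ears lie between 0.28 and 0.70 and the DNFB ears between -0.69 and -0.04, with no overlap.

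How closely a gene followed the muscle level of the ear differed within the list. Over the 12 ears, the Pearson correlation between a gene's deviation from its group means and that of the muscle level was over 0.9 for 15 genes, led by Tnnt3, Tnni2 and Atp2a1 at 0.98 each. It was under 0.6 for 9 genes, lowest for Tnnt1 at 0.16, Myog at 0.19 and Fbxo32 at 0.22. The slow troponins Tnnc1 and Tnni1 had 0.48 and 0.50. The level is made from these genes and the points share their libraries, so the values describe and do not test. The 10 genes outside the list that were most alike by this measure were Mypn, Myom1, Mrps30, Cdh13, Btbd1, Rtn2, Eef1a2, Epha2, Wipi1 and Kcnd1, from 0.979 to 0.908. Mypn and Myom1, proteins of the Z-disc and the M-band, fell in wild-type ears, with changes of -1.01 ± 0.21 and -1.54 ± 0.27.

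Slow isoforms fell more than their fast counterparts in several pairs. The pairs were chosen after the values were seen, so the differences are given without a test. The measure is log2 intensity of the slow minus that of the fast gene within an ear. As the probe sets differ, only its change between ears is compared. In the 4 pairs of this paragraph the slow gene was the dimmer in all 12 ears. The part of signal strength in the changes was not tested. For troponin C (Tnnc1 and Tnnc2) it changed by -0.96 in wild-type and -0.84 in knockout mice. For troponin I (Tnni1 and Tnni2) the changes were -0.77 and -0.37. For the regulatory light chain, Myl2 against Mylpf, they were -0.99 and -0.65, and for the essential light chain, Myl3 against Myl1, -1.35 and -1.86. In these 4 pairs the treated and control ears did not overlap in either genotype. How often other gene pairs separate the ears was not examined, so nothing is read from this separation. In knockout mice it was narrow for troponin I, at -3.77 in control ear 3 and -3.78 in DNFB ear 1. For the regulatory light chain the same ears had -4.22 and -4.26. Myl3 was dim in DNFB ears, with mean intensities of 15.6 and 14.5, so its change there is less certain.

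Other pairs did not separate the ears in both genotypes. Troponin T (Tnnt1 and Tnnt3) changed by -0.47 and -0.31, with overlapping groups, although all 6 mice had the lower value in the treated ear. For myosin binding protein C (Mybpc1 and Mybpc2) the changes were -0.67 and -0.23, and 5 of 6 mice were lower. Its wild-type control ears, at 3.11, 2.96 and 2.39, lay above the DNFB ears, at 2.14, 2.12 and 2.18, while the knockout groups overlapped. The heavy chain pair, Myh7 of slow fibres and heart against Myh4, changed by 0.04 and 0.22, and 3 of 6 mice were lower. Slow genes thus did not all fall further than fast ones.

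**Figure D4:**
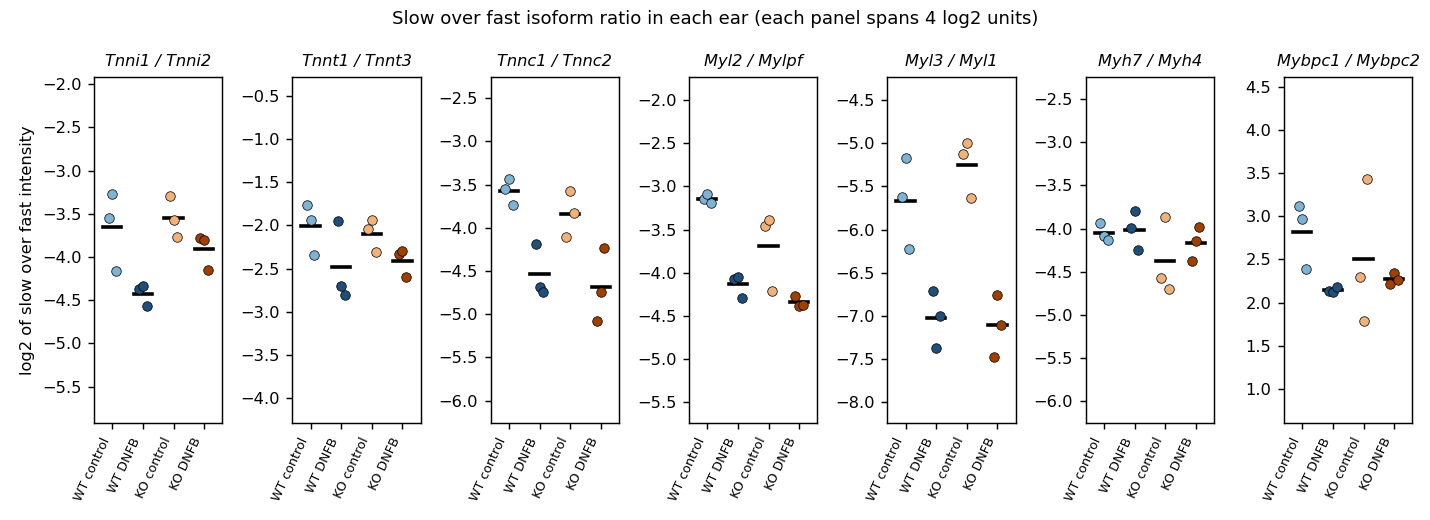
Each panel gives log2 of slow over fast intensity for a pair of isoform genes in every ear, with a bar at each group mean (n = 3), and all panels span the same number of log2 units. The troponin C, regulatory and essential light chain pairs step down with DNFB in both genotypes, and the Myh7 and Myh4 pair does not.

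The genotype of the mouse did not separate the muscle genes at the threshold. In control ears 0 of 37 differed between knockout and wild type (limma), where 0.15% of all genes did. At an unadjusted p under 0.05 there was 1 (2.7%), against 9.79% of all genes. This was Fbxo32, at 0.50 ± 0.21 higher in knockout ears (limma adjusted p = 0.398). In DNFB ears 0 of 37 differed (limma), against 0.0673% of all genes. At an unadjusted p under 0.05 there were 5 (13.5%), near the 9.76% of all genes. These were Ttn, Tcap, Mybpc1, Myh2 and Neb, with values below wild type in knockout ears, at log2 differences from -0.45 ± 0.18 for Tcap to -0.77 ± 0.32 for Myh2. The median difference over the list was 0.03 in control and -0.24 in DNFB ears. The knockout and wild-type ears compared here shared no run, so genotype and run cannot be told apart in these values.

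The difference of the responses did not pass for any of the 37 genes (limma), against 0.00748% of all genes, and none had an unadjusted p under 0.05, against 6.3% of all genes. The difference was below 0 for 34 of 37 genes (91.9%), with a median of -0.26, where it was below 0 for 46.8% of all genes. Of the 35 genes with changes below 0 in both genotypes, 33 had the more negative change in knockout mice. Casq1 had -0.52 ± 0.26 (limma adjusted p = 0.817), Myh4 -0.59 ± 0.36 and Actn3 -0.59 ± 0.35, while Tnni1 had 0.22 ± 0.32. The genes share their ears, so these signs are not independent of one another, and knockout mouse 3 had the smallest median fall of all 6 mice. Within each treatment the ears of the genotypes also lay in different runs, so run and genotype cannot be told apart here either. The missed thresholds do not show that the responses were alike.

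The rest of the muscle programme was examined with lists of further genes. Of 26 other sarcomere and sarcolemma genes tested, 13 fell in wild-type and 15 in knockout ears, against 24.1% and 24.6% of all genes. None rose, and the medians were -0.74 and -0.82. Myom2, an M-band protein, went from 493.9 to 235.6 in group means of wild-type ears, a log2 change of -1.07 ± 0.13, and Lmod3, an actin nucleator of the thin filament, changed by -1.20 ± 0.19. Of 15 genes of excitation-contraction coupling and the neuromuscular junction, 5 fell in wild-type and 8 in knockout ears and none rose. The wild-type count lay near the share of all genes. Fxyd1 (phospholemman), a regulator of the sodium pump, changed by -1.39 ± 0.12 and -1.41 ± 0.12, and Cacna2d1, a further calcium channel subunit, by -1.21 ± 0.16 and -1.07 ± 0.16.

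Of 20 other energy genes, 12 fell in wild-type and 13 in knockout ears, against 24.1% and 24.6% of all genes. In each genotype 2 rose, against 19% and 21.2% of all genes. Mb, the oxygen store myoglobin, fell, at -1.11 ± 0.14 and -1.29 ± 0.14, and Ak1, adenylate kinase, at -1.06 ± 0.15 and -1.12 ± 0.15. The genes that rose were Pgam1 and Ldha, glycolytic enzymes of many cell types. Pgam1, the non-muscle counterpart of Pgam2, changed by 1.51 ± 0.11 and 1.50 ± 0.11, and Ldha by 1.22 ± 0.13 and 1.11 ± 0.13.

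Genes of slow and cardiac-type sarcomeres divided in the same way. Of 9 tested, 6 fell in wild-type and 5 in knockout ears, against 24.1% and 24.6% of all genes. In each genotype 2 rose, near the 19% and 21.2% of all genes. Tnnt2, the troponin T of heart and immature muscle, fell, at -2.12 ± 0.22 and -2.42 ± 0.22, Myl2 at -1.89 ± 0.24 and -1.79 ± 0.24, Myl3 at -1.84 ± 0.27 and -2.41 ± 0.27, Myh7 at -1.10 ± 0.34 and -1.50 ± 0.34 and Myl4 at -0.55 ± 0.16 and -0.85 ± 0.16. Actc1, cardiac actin, fell by 0.70 ± 0.22 in wild-type ears and had -0.28 ± 0.22 in knockout ears, which did not pass. Tpm3 and Atp2a2, which many tissues outside muscle use, rose by 0.56 ± 0.09 and by 0.52 ± 0.09 in wild-type and by 0.57 ± 0.09 and by 0.34 ± 0.09 in knockout ears. The heart genes Myh6, Myl7 and Nppa were below 16 in every ear.

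Markers of embryonic muscle and regeneration gave no rise. Of 5 tested genes, 3 fell in wild-type and 2 in knockout ears, against 24.1% and 24.6% of all genes. From 5 genes nothing is read about the list as a group. Myh3, the embryonic myosin heavy chain, fell, at -2.03 ± 0.24 and -2.02 ± 0.24, and Mef2c, a transcription factor of muscle and other cells, at -0.90 ± 0.15 and -0.94 ± 0.15. Ncam1 fell by 0.64 ± 0.19 in wild-type ears and had -0.25 ± 0.19 in knockout ears, which did not pass. The remaining tested genes of the list did not pass in either genotype. Myh8, Chrng, Mymk, Myf5 and Pax7 were below 16 in every ear, so these genes were not measurable at this signal.

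Genes induced in wasting muscle moved both ways. Of 12 tested, 4 fell (33.3%) and 3 rose (25%) in wild-type ears, and 5 fell (41.7%) and 4 rose (33.3%) in knockout ears. Of all genes, 24.1% and 24.6% fell and 19% and 21.2% rose, and from 12 genes nothing is read about the list as a group. The transcription factors Foxo1, Foxo3 and Klf15, which drive the wasting programme, fell, with changes of -0.80 ± 0.14, -0.76 ± 0.14 and -1.90 ± 0.42 in wild-type and -0.95 ± 0.14, -0.93 ± 0.14 and -1.70 ± 0.42 in knockout ears. Cdkn1a, a cell cycle inhibitor, fell, at -0.38 ± 0.08 and -0.54 ± 0.08, and Bnip3, a mitophagy receptor, fell by 0.56 ± 0.15 in knockout ears and had -0.37 ± 0.15 in wild-type ears. The protease Ctsl, the translation inhibitor Eif4ebp1 and the metallothionein Mt2 rose by 0.62 ± 0.10, by 0.91 ± 0.16 and by 0.62 ± 0.13 in wild-type and by 0.44 ± 0.10, by 1.01 ± 0.16 and by 1.07 ± 0.13 in knockout ears. Mt1, another metallothionein, rose by 0.89 ± 0.23 in knockout ears and had 0.34 ± 0.23 in wild-type ears. These genes are also expressed outside muscle.

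Other tissues of the ear moved at the same time. Their counts stand beside 24.1% of all genes fallen and 19% risen in wild-type ears, and 24.6% and 21.2% in knockout ears. Of 9 cartilage genes, 6 fell in wild-type and 7 in knockout ears (medians -1.39 and -1.20), of 8 adipocyte genes 7 and 6 (-1.02 and -1.40) and of 6 nerve and Schwann cell genes 4 and 4 (-1.48 and -1.34), and none of these lists held a gene that rose. Summed intensities of cartilage genes were 2562 to 3226 in wild-type control and 913 to 1036 in wild-type DNFB ears. In the same groups they were 5823 to 7265 and 2992 to 4699 for adipocyte genes, and 3169 to 3351 and 1002 to 1348 for nerve genes. The muscle genes summed to 28382 to 37776 in wild-type control and 14786 to 22523 in wild-type DNFB ears. Comp and Acan, of cartilage matrix, changed by -1.44 ± 0.17 and -1.64 ± 0.20 in wild-type ears, Pparg of fat by -0.97 ± 0.20 and the myelin gene Pmp22 by -1.17 ± 0.12. Muscle was thus not the only tissue whose genes fell, and the part of these tissues in the muscle result was not tested.

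The remaining lists showed no common fall. Over all genes, 24.1% fell and 19% rose in wild-type ears, and 24.6% fell and 21.2% rose in knockout ears. The wild-type keratinocyte counts below lay near these shares. Of 10 leukocyte genes 9 rose in each genotype (medians 2.23 and 2.20), among them Cd52 by 2.83 ± 0.14 and by 2.51 ± 0.14 and Coro1a by 2.48 ± 0.13 and by 2.27 ± 0.13. Of 10 keratinocyte genes, 3 fell and 2 rose in wild-type and 4 fell and 3 rose in knockout ears, and their summed intensity was 43429 to 48573 in wild-type control and 41224 to 49139 in wild-type DNFB ears. Of 8 smooth muscle genes, 1 fell and 1 rose in wild-type ears and 1 fell and 2 rose in knockout ears: Synpo2 changed by -1.11 ± 0.26 and -1.65 ± 0.26, and Acta2, smooth muscle actin, by 0.54 ± 0.15 and 0.70 ± 0.15. Of 8 endothelial genes, 1 fell in wild-type ears and 2 rose in knockout ears. The smooth muscle medians were -0.14 and -0.02.

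**Figure D5:**
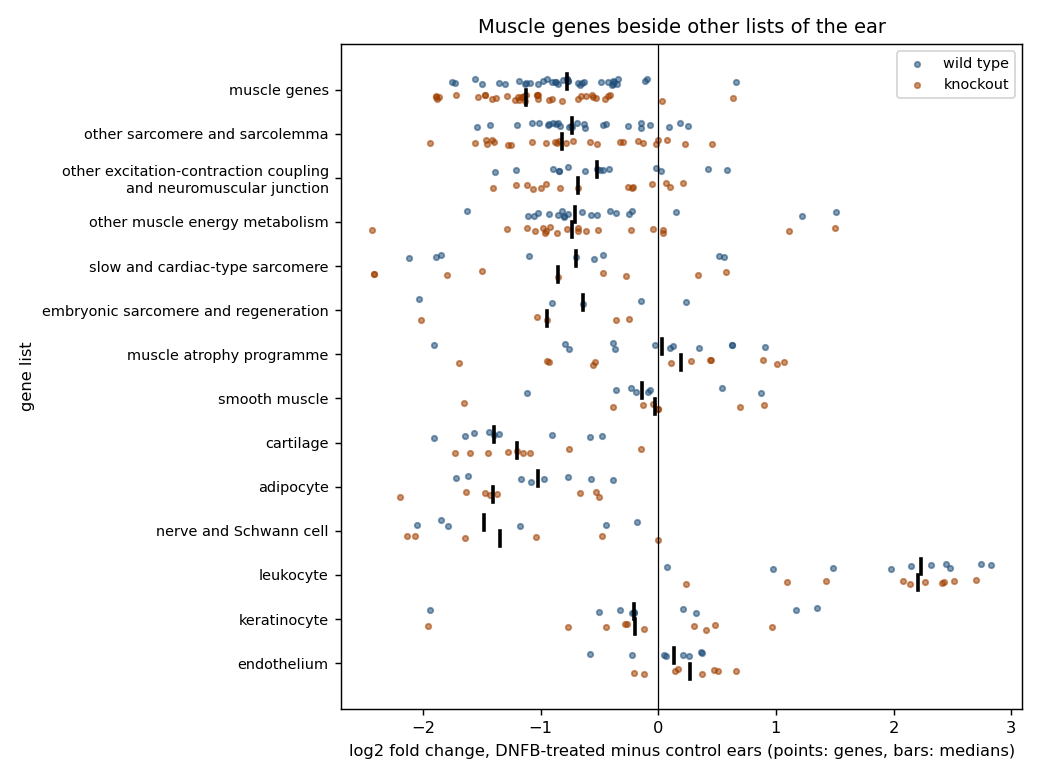
Points give the log2 fold change, DNFB-treated minus control ears, of each tested gene in the muscle list and 13 other lists, and bars are list medians. The muscle, cartilage, adipocyte and nerve lists lie mostly below 0, leukocyte genes lie above it, and keratinocyte and smooth muscle medians lie near 0.

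A sign of RNA quality was measured on the same arrays. For Actb, control probe sets at the 3' end exceeded those at the 5' end by log2 values of 0.66 ± 0.07, 0.52 ± 0.08, 0.48 ± 0.02 and 0.42 ± 0.01 (SD, n = 3) in wild-type control, wild-type DNFB, knockout control and knockout DNFB ears, and the same difference for Gapdh was -0.40 ± 0.08, -0.35 ± 0.03, -0.38 ± 0.06 and -0.32 ± 0.06. The part of this in the muscle result was not tested. Of 15 further tested probe sets in 9 of the muscle genes, 13 fell in wild-type and 12 in knockout ears. Over all 29460 tested probe sets, 6726 fell in wild-type and 6481 in knockout ears. Several of the 15 belong to Ttn and all share the same ears, so they are not separate support.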

How the data were processed

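Whole ear RNA was measured on 12 arrays of 6 mice. The deposited values are linear intensities, 1 per probe set, made by the authors with GCRMA per the submitters' processing notes; version and settings are not given in the sources used here. The deposited instrument records (unit: other) served only to infer the batches called runs here, from gaps in the Hybridize Date. Log2 intensities were computed here with no pseudocount. Of 45101 probe sets, 34945 carry 1 gene symbol in the platform annotation, 932 several and 9160 none. A probe set was tested with intensity of at least 16 in at least 3 arrays, which left 29460. A gene has the value of its brightest single-symbol probe set. A model with 1 coefficient per group was fitted by lmFit and eBayes of limma 3.58.1 under R 4.3.3 and p-values adjusted by Benjamini-Hochberg over all tested probe sets, threshold 0.05, two-sided. Fold changes are ± SE of the model. The fit was tested on simulated data. The number of arrays limits the precision.

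Members and lists were chosen with earlier results of these data known. All 37 members are named. From each other list up to 4 genes with the smallest p in wild-type ears were eligible, plus genes of the slow, embryonic and wasting lists that passed. The labels give the mouse of each ear, which pairs the samples. Deviations from the group mean, taken over probe sets, correlated by -0.00426 to 0.0797 between both ears of a mouse, and mouse was used as an alternative block. Other alternatives were the filter, the normalization, an added constant, run as a block, all probe sets of a gene and leaving out each ear. Promoter windows and gene positions are those of RefSeq GRCm38.p6.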

Additional observations from a re-analysis of the deposited data

How the results depend on the processing

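The wild-type count of 26 fallen muscle genes was 20 without the intensity filter, 18 with arrays centred on their medians, 24 with quantile normalization, 27 with log2(intensity + 16) and 27 with a trended robust fit. It ranged from 16 to 26 over single ears left out. The knockout count of 27 was 26, 26, 28, 32 and 34 under the same settings and ranged from 25 to 34. With mouse as a fixed replicate block, which pairs the ears, the counts were 25 and 31. With run as a block, a single ear stands for a whole group in each response, so no counts are given. The median change of the tested probe sets was -0.14 in wild-type and -0.09 in knockout ears. Centring removes the shift between array medians, which were taken over all probe sets. No muscle gene differed by genotype, or in its response, under any alternative setting. Several alternatives, such as the filter, the mouse blocks and leaving out an ear of the other genotype, cannot alter a fold change. The share of values kept is therefore no measure of stability. Of 1620 values of single genes under alternatives, 1467 kept their direction and side of the threshold, 92 lost their call and 49 gained one. Another 12 changed sign, none of them called in the main setting, and the cause was not tested. In wild-type ears these were Mybpc2 (-0.62 to 0.031 over single ears left out, positive without control ear 3), Actn2 (0.050 with centring and -0.21 to 0.072 over ears left out, positive without DNFB ear 1) and Des (0.034 with centring and -0.21 to 0.020 over ears left out, with 0.0020 without control ear 3). In knockout ears they were Myod1 (-0.049 with run as a block and -0.43 to 0.68 over ears left out) and Myog (-0.45 with run as a block and -0.34 to 1.19 over ears left out). Shares of all genes under the alternative settings are not given, so no count in this paragraph is read as particular to the muscle list. Genes that fell under every setting numbered 15 in each genotype. They were Tnnt1, Tnni1, Tnni2, Tnnc1, Tnnc2, Myh4, Mylpf, Mybpc1, Actn3, Tcap, Atp2a1, Casq1 and Fbxo32 in both, with Tnnt3 and Pygm in wild-type and Myh1 and Ckm in knockout ears. Signal over background limited Myod1 and Myog.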

Other observations

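Probe sets of titin differed in size of change. The brightest, used above, changed by -0.78 ± 0.23 in wild-type and -1.13 ± 0.23 in knockout ears. The other 4 that were tested ranged from -0.74 ± 0.26 to -1.22 ± 0.21 in wild-type and from -0.77 ± 0.26 to -1.78 ± 0.25 in knockout ears, and all passed in both genotypes (limma). Titin is spliced into many isoforms, and which exons these probe sets cover was not examined. For Fbxo32 the 3 probe sets changed by -1.56 ± 0.21, -0.68 ± 0.21 and -1.27 ± 0.32 in wild-type ears.

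Among the genes whose ear-to-ear variation was most like the muscle level, Mrps30 rose in wild-type ears (0.35 ± 0.09, limma adjusted p = 0.0114), while Epha2, Wipi1 and Kcnd1 did not pass in either genotype. Cdh13 and Rtn2 fell by 1.14 ± 0.12 and by 1.21 ± 0.17 in wild-type ears. These genes were named by their likeness within groups, and no test was made of it.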
